A study of Mus musculus with 6 samples.

Results

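Prostanoids are the lipid mediators that cells make from arachidonic acid, and the 10 genes described here encode enzymes that make or break down prostanoids and receptors that sense them. They were chosen by name: Ptgds, Ptgs1, Ptges and Ptgis for synthesis, Hpgd for breakdown, and Ptger2, Ptger3, Ptger4, Ptgfr and Ptgir as receptors. Earlier results of these data were known when they were chosen. Every probe set (the group of short probes that reports 1 transcript region) with one of these symbols was taken, which gave 19 of the 45101 probe sets on the array and 9 of the 18193 genes named on it. No probe set carries the symbol Ptgs1 in the annotation used, so its signal was not analysed here, and only its promoter was searched.

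The study set 3 granulosa cell tumors of Smad1/5/8 mutant mice against 3 samples of wild-type granulosa cells (somatic cells of the follicle, around the oocyte), on 1 Affymetrix array each. Receptors for bone morphogenetic proteins (BMPs) act through the transcription factors Smad1, Smad5 and Smad8 (now also named Smad9). The wild-type cells came from C57BL/6J;129S5/SvEvBrd females aged 21 days, isolated 44 to 46 hours after an injection of PMSG (pregnant mare serum gonadotropin, which acts like follicle-stimulating hormone), with 2 to 3 females pooled in each sample. The tumor mice had no treatment and their tumors are described as independent of each other. For the tumor mice, the sources used here do not give the alleles, any Cre driver, the strain or the age. Genotype, tumor against isolated cells, priming, tissue storage and the software that made the signals all differed between the groups and cannot be told apart. In whole tumor tissue, a change in the share of a cell type and a change in RNA per cell cannot be told apart either.

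Prostanoid synthesis starts when phospholipases A2 release arachidonic acid, which the cyclooxygenases Ptgs1 and Ptgs2 turn into prostaglandin H2. Terminal synthases then make the active products: Ptgds makes prostaglandin D2, Ptges makes prostaglandin E2 and Ptgis makes prostacyclin. Hpgd starts the inactivation of prostaglandins by oxidising them. The receptors sit on the cell surface and couple to G proteins: Ptger2, Ptger4 (prostaglandin E2) and Ptgir (prostacyclin) raise cyclic AMP, Ptger3 (prostaglandin E2) mainly lowers it, and Ptgfr (prostaglandin F2 alpha) raises calcium. In the ovary, prostaglandin E2 made after the luteinizing hormone surge acts on cumulus cells before ovulation, and prostaglandin F2 alpha drives regression of the corpus luteum.

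In the tumors the signals of the prostaglandin D2 synthase Ptgds, the prostacyclin synthase Ptgis and the prostaglandin E2 receptors Ptger3 and Ptger4 were higher, and that of the prostaglandin F2 alpha receptor Ptgfr was lower. Of the 8 genes that passed a filter on low signals (a minimum of 100 on 3 or more of the 6 arrays), 4 were called higher and 1 lower, where 14.5% of the 11611 tested genes were called higher, 12.6% lower and 27.2% in either direction. A call needed p under 0.05 in limma on log2(signal + 32), after Benjamini-Hochberg adjustment across every gene tested, and each gene was read from its brightest passing probe set. Ptges, Hpgd and Ptger2 did not pass the test, and Ptgir lay below 100 on every array and was not tested. The median log2 fold change of the 8 tested genes was 0.82 and the median of its absolute size 1.35, against -0.0049 and 0.38 over all tested genes. Since the genes were chosen with earlier results of these data known, these shares and medians do not test the pathway. Ptgfr passed the filter through its wild-type arrays alone, and Ptger3 through 3 tumor arrays and 1 wild-type array. With no filter, where all 9 measured genes entered the fit, the same numbers were called, 4 higher and 1 lower.

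**Figure D1:**
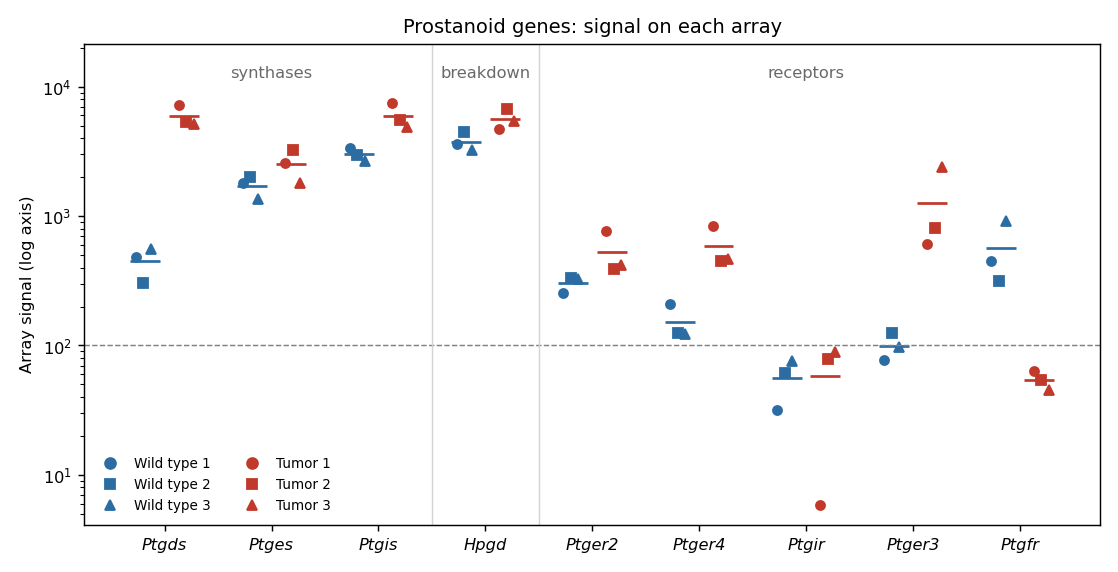
Array signal (log axis) of the 9 measured prostanoid genes, each by its brightest probe set, with 1 point per array, horizontal bars for group means and a dashed line at a signal of 100. Ptgds, Ptgis, Ptger3 and Ptger4 have all tumor points above all wild-type points, Ptgfr has them all below, and all 6 points of Ptgir lie under the line.

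The promoters of the 4 genes with the largest changes are shown because their signals moved apart from the wild-type arrays the furthest and in both directions. Each run is the 250 bases before the gene's start, 5′ to 3′ on the gene's strand, from RefSeq on GRCm38.p6. Ptgds is at chr2:25469750-25469999 (minus strand), Ptger3 at chr3:157566626-157566875 (plus), Ptger4 at chr15:5244188-5244437 (minus) and Ptgfr at chr3:151837529-151837778 (minus). Capitals mark the 6 motifs searched on both strands: TGACG (core of a cyclic AMP response element), GGCGCC (bound by BMP-activated Smads), AAGGTCA (bound by Nr5a1 and Nr5a2), TGAGTCA (AP-1), GGGCGG (GC box) and CAGCTG (E-box).
Ptgds: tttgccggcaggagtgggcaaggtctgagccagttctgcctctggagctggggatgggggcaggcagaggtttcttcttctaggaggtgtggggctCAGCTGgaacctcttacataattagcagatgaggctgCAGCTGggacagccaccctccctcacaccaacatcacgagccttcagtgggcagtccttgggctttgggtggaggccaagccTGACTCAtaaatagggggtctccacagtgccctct
Ptger3: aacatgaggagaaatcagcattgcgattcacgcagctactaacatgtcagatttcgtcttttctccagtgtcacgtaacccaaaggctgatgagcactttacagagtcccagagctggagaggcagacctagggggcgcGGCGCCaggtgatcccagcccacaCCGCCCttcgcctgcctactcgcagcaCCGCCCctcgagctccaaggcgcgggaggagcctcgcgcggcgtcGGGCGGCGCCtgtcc
Ptger4: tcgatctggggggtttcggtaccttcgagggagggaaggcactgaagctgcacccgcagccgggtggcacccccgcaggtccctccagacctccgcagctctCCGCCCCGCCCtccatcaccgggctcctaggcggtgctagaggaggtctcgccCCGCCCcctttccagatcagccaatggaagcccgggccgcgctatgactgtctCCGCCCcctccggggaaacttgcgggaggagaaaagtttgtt
Ptgfr: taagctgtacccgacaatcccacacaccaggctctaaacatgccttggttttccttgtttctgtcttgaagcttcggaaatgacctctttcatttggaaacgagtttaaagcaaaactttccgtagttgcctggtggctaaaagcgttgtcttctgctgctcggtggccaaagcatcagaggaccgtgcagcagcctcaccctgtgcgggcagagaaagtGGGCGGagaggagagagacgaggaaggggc

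GGCGCC stood in the Ptger3 window at 2 places, 111 and 11 bases before the start, the nearer of which shares bases with a GC box. Of all 32851 promoter windows of this length, 9.59% held GGCGCC, and among the 9 windows found for the 10 genes Ptger3 was the one that held it. Ptgds had CAGCTG at 2 places (13.0% of all windows hold it) and TGAGTCA 35 bases before the start (4.46% of windows). Ptger3 had 3 GC boxes, Ptger4 had 4, 2 of them overlapping, and Ptgfr had 1, where 32.7% of windows held at least 1. Of the 9 windows 6 held a GC box, among them those of Hpgd, Ptges and Ptgir, genes not called or not tested. TGACG (17.8% of windows) and AAGGTCA (4.08%) were not among the letters of any of the 9 windows. These are letter matches in a short window, with no measurement of binding.

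Ptgds, the lipocalin-type prostaglandin D synthase, had the largest rise of the 8 tested genes. Its brightest probe set (1423859_a_at) gave signals of 479, 305 and 557 for wild type and of 7279, 5337 and 5102 for the tumors. The lowest tumor lay far above the highest wild-type sample, and the tumors spread by 1.43 times between lowest and highest. Means were 447 ± 129 (SD, n = 3) and 5906 ± 1195, a ratio of 13.2, and the fitted log2 fold change was 3.65 (SE 0.25, limma adjusted p = 0.00031). Among the 11611 tested genes this was the rank 20 rise. The second Ptgds probe set (1423860_at) read 230, 158 and 250 against 3751, 3300 and 1438, with a fitted change of 3.46 in log2 units (SE 0.37, limma adjusted p = 0.0015 over all probe sets). Tumor 3 was the lowest tumor on both, less far below the others on the first than on the second.

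Ptgis, the prostacyclin synthase, was already bright in wild-type cells and rose about 1.99 times by mean signal. Its 1 probe set (1448816_at) read 3363, 2986 and 2669 in wild-type samples and 7475, 5563 and 4908 in tumors, without overlap. The log2 fold change was 0.97 (SE 0.20, limma adjusted p = 0.0126), with means of 3006 ± 348 and 5982 ± 1334 (SD, n = 3).

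Ptges, the inducible prostaglandin E synthase, did not pass the test. Its brightest probe set (1439747_at) read 1792, 1990.0 and 1353 in wild-type samples and 2594, 3235 and 1812 in tumors. The groups overlapped, since tumor 3 lay below wild-type sample 2. The log2 fold change was 0.54 (SE 0.25, 95% confidence interval -0.05 to 1.13, limma adjusted p = 0.151). On the other 2 probe sets tumor 3 was the lowest of all 6 arrays (1015 and 1604), with log2 fold changes of 0.11 and 0.15. Without tumor 3 the gene passed (log2 fold change 0.77, limma adjusted p = 0.0453), and the number of genes called higher was then 5.

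Hpgd, the 15-hydroxyprostaglandin dehydrogenase, read 3594, 4439 and 3232 in wild-type samples and 4690, 6762 and 5455 in tumors on its brighter probe set (1419905_s_at). All 3 tumors lay above all 3 wild-type samples, by a narrow margin between tumor 1 and wild-type sample 2. This gave a log2 fold change of 0.58 (SE 0.20, 95% confidence interval 0.12 to 1.04) that missed the threshold (limma adjusted p = 0.0676). The dim probe set (1419906_at) read 125, 99.4 and 105 against 143, 223 and 249, and was called when each probe set was tested (log2 fold change 0.72, SE 0.21, adjusted p = 0.0482). With the mean of both probe sets Hpgd passed (log2 fold change 0.65, limma adjusted p = 0.0357), and also with a mean-variance trend in the fit (adjusted p = 0.036).

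Ptger4, a receptor that raises cyclic AMP on binding prostaglandin E2, was higher in the tumors. It read 208, 124 and 123 in wild-type samples and 845, 447 and 468 in tumors (1424208_at). The groups did not overlap, and wild-type sample 1 and tumor 1 were each the highest of their group. Means were 152 ± 48.9 (SD, n = 3) and 587 ± 224, and the log2 fold change was 1.73 (SE 0.29, limma adjusted p = 0.00674). The other probe set (1421073_a_at) stayed under the filter, at 16.0, 18.0 and 2.6 against 127, 73.7 and 101, also without overlap.

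Ptger2, the other prostaglandin E2 receptor that raises cyclic AMP, read 256, 332 and 326 in wild-type samples and 763, 388 and 421 in tumors (1449310_at). No tumor lay as low as any wild-type sample, but tumors 2 and 3 were only slightly higher, and tumor 1 stood apart. The log2 fold change was 0.67 (SE 0.26, 95% confidence interval 0.05 to 1.29), which did not pass (limma adjusted p = 0.103). Ptgir, the prostacyclin receptor, read 31.6, 61.2 and 75.2 in wild-type samples and 5.87, 78.8 and 89.7 in tumors (1427313_at), below 100 throughout, so that neither a level nor a difference could be read. Levels of different probe sets cannot be set against each other, so Ptgir was not compared with the prostacyclin synthase Ptgis.

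Ptger3, the prostaglandin E2 receptor that mainly lowers cyclic AMP, rose from the edge of detection. Its brighter probe set (1450344_a_at) read 76.9, 125 and 97.1 in wild-type samples and 614, 805 and 2398 in tumors. Wild-type samples 1 and 3 were below 100 and all tumors well above it, with tumor 3 at 3.91 times tumor 1. Means were 99.5 ± 23.9 (SD, n = 3) and 1272 ± 980, and the log2 fold change was 3.07 (SE 0.47, limma adjusted p = 0.00466), rank 58 of the rises. The size depended on the pseudocount, with log2 fold changes of 3.43 at 1 and 2.56 at 100, and was 2.50 without tumor 3 (limma adjusted p = 0.00139). The gene is known for receptor isoforms that differ at their C-terminus, and its other probe set (1425251_at) stayed below 100 on all 6 arrays, at 7.87 ± 3.96 and 38.7 ± 27.7. Which transcripts each probe set matches was not analysed here.

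Ptgfr, the prostaglandin F2 alpha receptor, was the gene that fell. Its brightest probe set (1453924_a_at) read 452, 318 and 918 in wild-type samples and 63.4, 54.0 and 45.0 in tumors. The wild-type samples spread by 2.89 times, with sample 3 highest, while all 3 tumors were below 100 and close together. Since the tumors gave only a bound, the fall was at least 5.09-fold, computed from the mean log2 signal of the wild-type samples against 100. The fall passed the test (limma adjusted p = 0.00273). Its fitted log2 fold change of -2.66 (SE 0.35) is no exact size, since it rests on tumor signals below 100 and moved to -3.22 and -2.00 with pseudocounts of 1 and 100. Of 5 Ptgfr probe sets, 3 passed the filter and all 3 were called lower, at least 5.07-fold for 1420349_at and at least 2.65-fold for 1446331_at. Each of the 3 passed the filter through its wild-type arrays alone, so their shared direction is no separate support. The other 2 were too dim to test: 1440777_x_at lay below 100 on every array, and 1449828_at reached it in wild-type samples 1 and 3 only. Wild-type sample 3 was the highest of the 6 arrays on 4 of the 5 probe sets, the exception being 1440777_x_at, where sample 1 was highest.

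**Figure D2:**
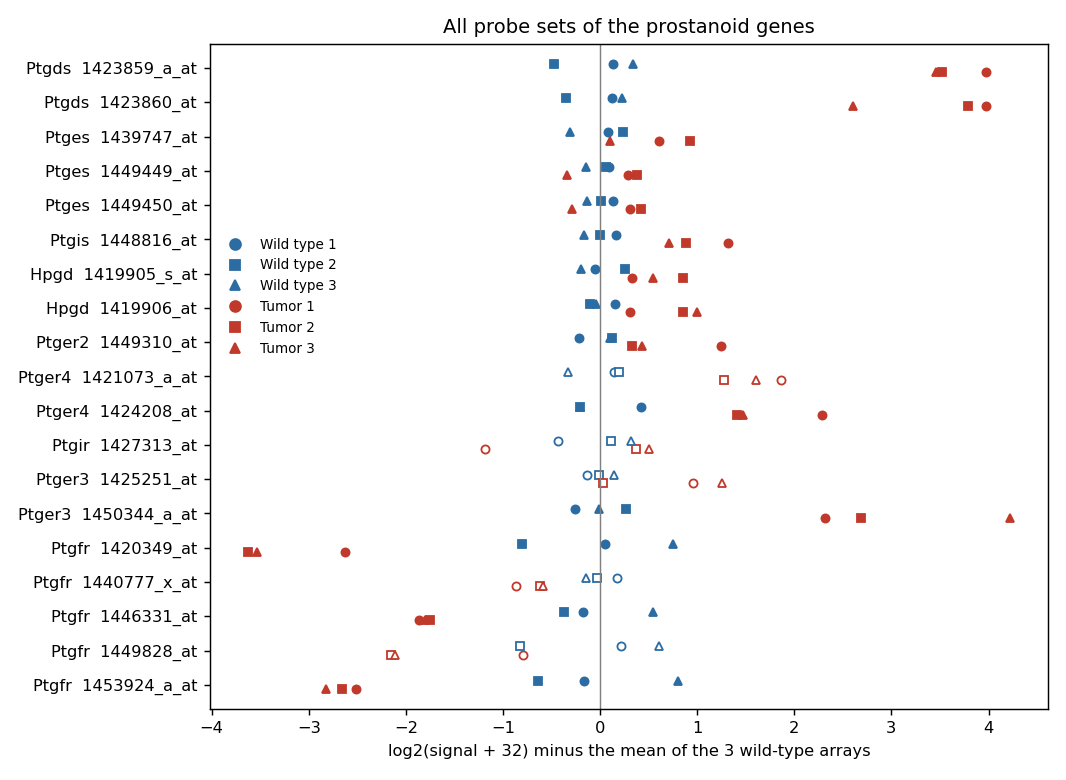
All 19 probe sets of the prostanoid genes, with each array's log2(signal + 32) minus the mean of the 3 wild-type arrays, and open symbols for probe sets under the filter. Both Ptgds probe sets lie to the right in all tumors, the Ptgfr probe sets lie to the left, and 2 of the 3 Ptges probe sets have tumor 3 left of all wild-type points and the other tumors right of them.

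Across all 19 probe sets, 14 passed the filter and 6 of these were called higher and 3 lower, against 11.7% and 12.4% of the 21001 passing probe sets. The 6 were the 2 of Ptgds and 1 each of Ptgis, Hpgd, Ptger3 and Ptger4, and the 3 were all of Ptgfr. Those 3 passed the filter through their wild-type arrays alone. Probe sets of 1 gene share their target and are not replicates. No gene had a passing probe set called in the other direction. All 3 tumors were above all wild-type samples in 6 of the 8 tested genes and below them in 1, where 23.7% and 22.6% of all tested genes showed this and 46.3% did not overlap in either direction.

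**Figure D3:**
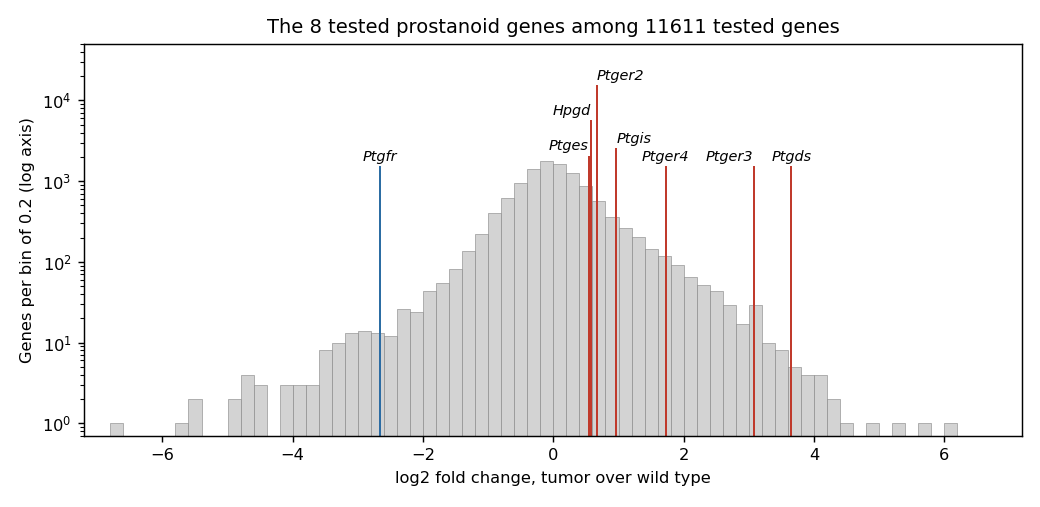
Histogram of the log2 fold changes of the 11611 tested genes (bins of 0.2, log axis for the number of genes) with vertical lines at the 8 tested prostanoid genes (red above 0, blue below, whether called or not). Ptgds (3.65) and Ptger3 (3.07) lie in the right tail, Ptgfr (-2.66) in the left, and Ptges, Hpgd and Ptger2 between 0.54 and 0.67.

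Further genes of the pathway were read from the same fit. Of 36 genes of prostanoid release, synthesis, transport and response, 31 had a probe set with 1 symbol and 22 were tested: 4 were called higher, 2 lower and 16 did not pass, near the shares of all tested genes called (14.5% higher and 12.6% lower). Their median log2 fold change was 0.11 and the median absolute change 0.34, against 0.38 over all tested genes. Among the phospholipases that release arachidonic acid, the cytosolic Pla2g4a fell and the secreted Pla2g5 rose. Pla2g4a read 3082, 2676 and 3159 in wild-type samples and 1691, 1530 and 2372 in tumors (log2 fold change -0.69, SE 0.20, limma adjusted p = 0.0399). This call was lost without any 1 sample except tumor 3, with adjusted p up to 0.127, and with no filter (adjusted p = 0.084). Pla2g12a, another secreted phospholipase, fell as well, with means of 791 ± 119 and 391 ± 84.3 (SD, n = 3) and a log2 fold change of -0.97 (limma adjusted p = 0.0138), a call lost without wild-type sample 1 (adjusted p = 0.0609).

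Pla2g5 read 118, 99.9 and 117 against 356, 218 and 889, with tumor 3 highest (log2 fold change 1.64, SE 0.43, limma adjusted p = 0.0306), and lost its call without wild-type sample 1, 2 or 3 or tumor 1 (adjusted p up to 0.0873) and with no filter (adjusted p = 0.0613). Ptgs2, the inducible cyclooxygenase, was below 100 on all 6 arrays with both probe sets; the brighter one averaged 65.0 ± 17.0 and 9.78 ± 3.36 (SD, n = 3). It was not tested under the filter, and with no filter it was called lower (limma adjusted p = 0.0121), between signals that are all below 100. The receptors Ptgdr and Ptgdr2 for prostaglandin D2 and Ptger1 for prostaglandin E2 were also below 100 on every array, as was Hpgds, the haematopoietic prostaglandin D synthase. These 4 genes were named after their values were seen.

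Of the further synthases and reductases, Cbr3 passed the test. This carbonyl reductase read 156, 186 and 191 in wild-type samples and 619, 455 and 1297 in tumors, with tumor 3 highest (log2 fold change 1.84, SE 0.35, limma adjusted p = 0.01). Akr1c18, a reductase that inactivates progesterone and can make prostaglandin F2 alpha, read 158, 114 and 106 against 1522, 155 and 7507. Tumor 2 lay within the wild-type range and the tumors differed by 48.4 times, so that the log2 fold change of 3.05 (SE 1.17) did not pass (limma adjusted p = 0.0938). Without tumor 2 it was 4.45 (limma adjusted p = 0.00641). Akr1c14, a related reductase, read 12476, 13497 and 14421 against 5453, 7631 and 13297, with tumor 3 close to the wild-type samples (log2 fold change -0.71, limma adjusted p = 0.133), and passed without tumor 3 (-1.06, adjusted p = 0.0122).

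Of the breakdown, transport and other genes described next, Ptgr2 passed on 1 probe set. Ptgr2, which reduces the oxidised products of Hpgd, was called higher on its brightest probe set (489 ± 67.4 to 784 ± 110, SD, n = 3; log2 fold change 0.65, limma adjusted p = 0.0293). Its 5 passing probe sets disagreed, from -0.89 to 0.65, and with their mean the log2 fold change was 0.09 (limma adjusted p = 0.679). The call was also lost without wild-type samples 1 or 3 or tumors 2 or 3, with adjusted p up to 0.115, and with no filter (adjusted p = 0.0681). Ptgr1, of the same function, read 1350, 1363 and 1408 against 1314, 726 and 4287. Tumor 3 alone was high, and the log2 fold change of 0.22 (limma adjusted p = 0.799) turned to -0.48 without it (adjusted p = 0.213). Ptgr3 (listed under the older symbol Zadh2), Cbr1, Plaa and the transporter Slco3a1, all with mean signals over 1000, did not pass, with log2 fold changes of -0.04, -0.10, 0.29 and 0.42. For Slco3a1 all tumors lay above all wild-type samples on 2 of 3 probe sets, with ratios of mean signals of 1.58 and 1.35.

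Ptgfrn, a membrane protein that binds the prostaglandin F2 alpha receptor and negatively regulates it, rose where the receptor gene fell. It read 815, 926 and 765 in wild-type samples and 1664, 1775 and 1468 in tumors, for a log2 difference of 0.94 (SE 0.15, limma adjusted p = 0.00554). The groups did not overlap, and the call held in each fit without 1 sample, with adjusted p up to 0.0311. The thromboxane receptor gene Tbxa2r, named after its values were seen, read 162 ± 80.9 and 155 ± 25.3 (SD, n = 3; log2 fold change 0.02, 95% confidence interval -0.65 to 0.68).

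**Figure D4:**
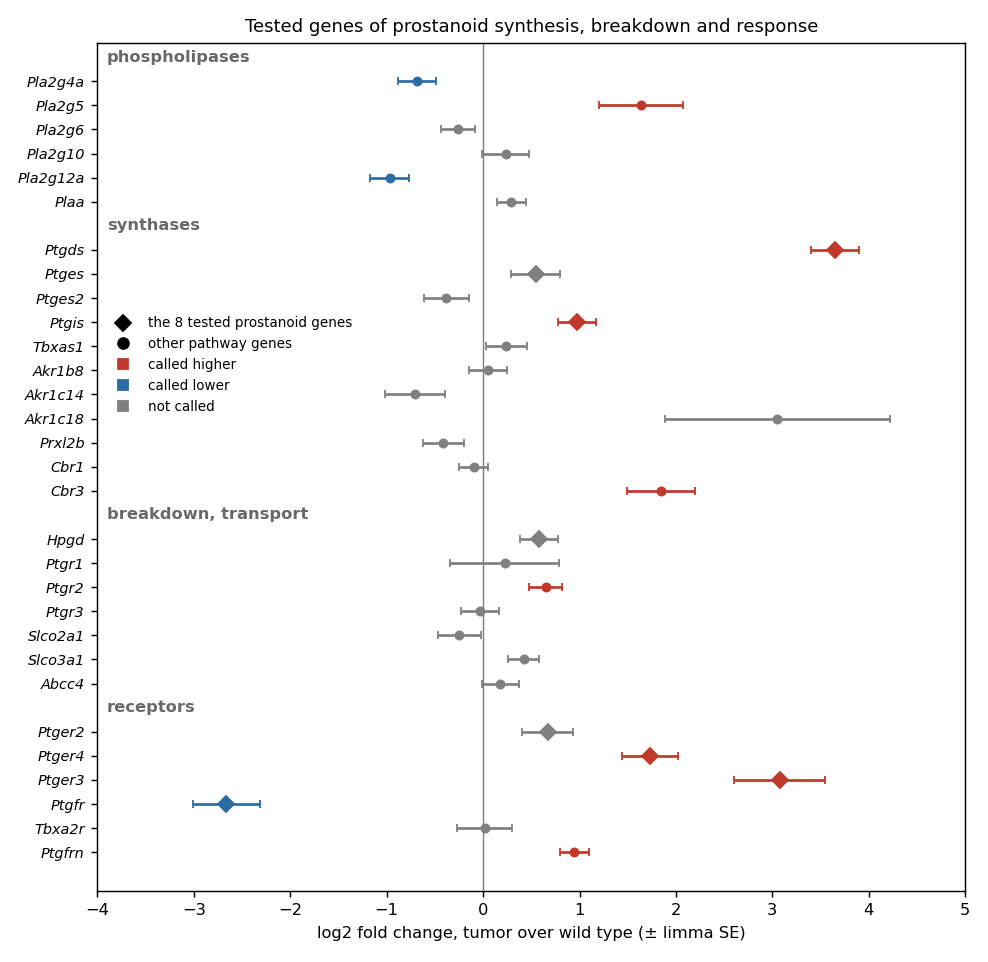
log2 fold change (tumor over wild type) with limma SE bars for the 30 tested genes of the pathway, ordered by role, with diamonds for the prostanoid genes described first and circles for the others; red marks genes called higher, blue lower and grey not called. Ptgds and Ptger3 lie furthest right among the called genes and Ptgfr furthest left, and Akr1c18 has the widest error bar.

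Tumor 3 stood apart in several of these genes: it was the highest tumor for Ptger3, Pla2g5, Akr1c14, Akr1c18, Cbr3 and Ptgr1 and the lowest for all 3 Ptges probe sets, both Ptgds probe sets and Ptgis. Tumor 1 was the highest for both Ptgds probe sets, Ptgis, Ptger2 and both Ptger4 probe sets. These genes were picked out after their values were seen, and differences between single tumors have no replicate.

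By likeness over the 6 arrays (Pearson correlation of log2(signal + 32), n = 6), the genes nearest to Ptgds among 11581 others were Utp25, Matn2 and Nfix, each at 0.996. Those nearest to Ptgfr were Ndufaf3, Kbtbd8 and Pcdh18, at 0.998, 0.997 and 0.997. A correlation over 0.9 was common, with 9.46% of genes for Ptgds and 6.21% for Ptgfr, since the points share the split into 2 groups, so these names describe the arrays only.

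Markers of other cell types were also higher in the tumors, on lists whose genes stand in no prostanoid list. All 12 tested macrophage markers (of 14) and all 13 tested smooth muscle and pericyte markers (of 14) were called higher. So were 6 of 13 endothelial and 10 of 12 tested fibroblast markers, with 1 fibroblast marker lower. Of all tested genes, 14.5% were called higher. Fcgr1, Des, Cspg4, Kcnj8 and Vwf passed the filter through their tumor arrays alone (named after their values were seen). The summed signal of the macrophage list ranged from 2470 to 2830 in wild-type samples and from 14683 to 17752 in tumors; for smooth muscle and pericytes it was 5229 to 6752 against 18783 to 35311, for endothelium 2729 to 3827 against 7522 to 15535, and for fibroblasts 23694 to 27529 against 47818 to 71315. In each of the lists some markers reached 100 in wild-type samples too. Tumor 3 had the lowest sum of the 3 tumors for macrophages, smooth muscle and fibroblasts, and tumor 1 the lowest endothelial sum (7522, against 8811 in tumor 3). Of the genes called higher, Ptger3 was highest in tumor 3 and lowest in tumor 1, while Ptgds and Ptgis were highest in tumor 1 and lowest in tumor 3. Ptger4 was highest in tumor 1 and lowest in tumor 2 on its tested probe set. The part of these cell types in the changes of Ptgds, Ptgis, Ptger3 and Ptger4 was not tested.

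Granulosa markers were present in both groups, with summed signals of 185385 to 210315 in wild-type samples and 80837 to 99822 in tumors. Of the 12 measured, 5 fell, 2 rose and 5 did not pass. Inha, an inhibin subunit gene, read at least 29873 on every array, while Inhbb, another, fell, with means of 33400.1 ± 3681 and 2139 ± 380 (SD, n = 3). Theca markers were mixed (2 higher, 2 lower and 3 not called of 7 tested), and summed to 66743 to 82221 in wild-type samples and to 40378, 35130 and 85882 in tumors 1, 2 and 3. Most of the tumor 3 sum came from Hsd3b1 (43115), Ptch1 (27114) and Aldh1a1 (12458). Among the tumors, Cyp17a1 (29.5), Star (506) and Gli1 (477) were lowest there, while Cyp11a1 (2182) was highest there. Aldh1a1, Cyp17a1, Star, Gli1 and Cyp11a1 were named after their values were seen. Gli1 passed the filter through its tumor arrays alone. Mast cell markers summed to 373 to 692 in wild-type samples and to 1771, 442 and 440 in the tumors. The 1 that could be tested, Hdc, was called lower, and Fcer1a and Mrgprb1 were below 100 on all arrays. In tumor 1 Cpa3, Cma1, Mcpt4 and Tpsb2 (the last 3 chosen after their values were seen) lay at 357, 326, 267 and 355, and on the other 5 arrays they were at most 110 (Cpa3 in tumor 2). Tpsab1 and Ms4a2 did not follow, at 68.2 and 42.5 in tumor 1 and up to 114 and 155 in wild-type samples (also named after their values were seen). The part of mast cells in the results was not tested. Platelet markers summed to 826 to 936 against 778 to 1217, with 1 of 5 tested higher (Pf4), and the surface epithelium list to 4050 to 6069 against 3107 to 5211, with 1 of 9 lower (Upk3b).

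**Figure D5:**
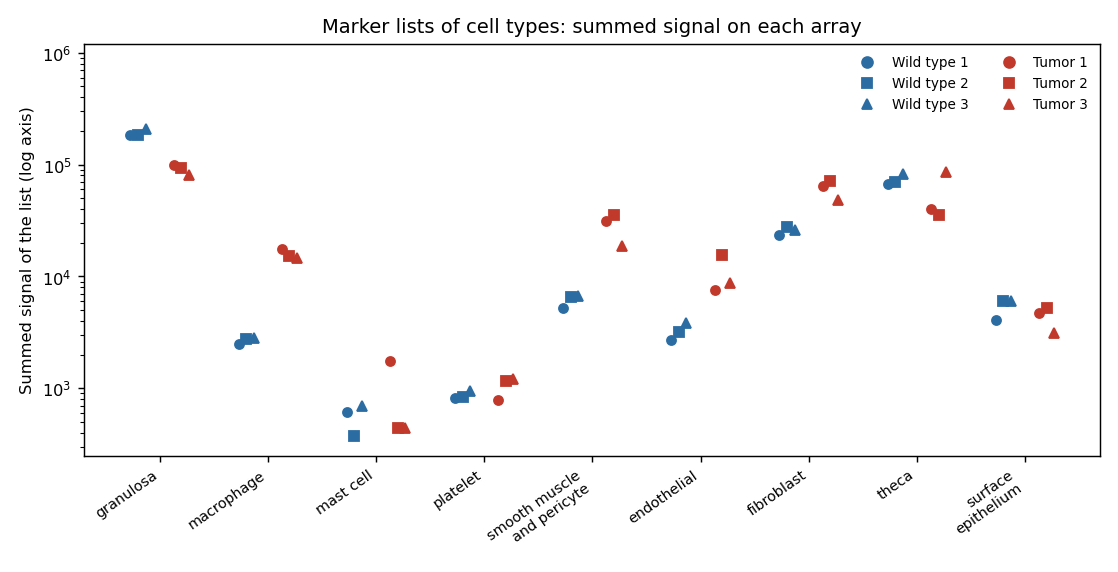
Summed signal (log axis) of 9 marker lists on each array, with 1 point per array. Macrophage, smooth muscle and pericyte, endothelial and fibroblast lists are higher on every tumor array than on any wild-type array, the granulosa list is lower, and the mast cell list has tumor 1 above the other 5 arrays.

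The arrays were alike in scale, with medians of 100.6 to 127.8 and 22599 to 25049 probe sets at a signal of 100 or more. Arrays correlated over the tested genes at 0.964 to 0.979 within wild type, at 0.938 to 0.951 within the tumors and at 0.840 to 0.867 across groups. The 3′ control probe sets over the 5′ ones, as a log2 ratio and a sign of RNA quality, gave 0.45 ± 0.19 and 0.81 ± 0.21 (SD, n = 3) for Actb and -0.39 ± 0.07 and -0.36 ± 0.11 for Gapdh, in wild-type samples and tumors; its part in the results was not tested. Hybridisation controls (bacterial and phage probe sets) were brighter on the tumor arrays, with a mean log2 signal of 12.56 ± 0.42 against 11.53 ± 0.16. Scaled to these controls, the median of all genes moved to -0.98 and the split of all calls to 384 higher and 7753 lower, from 1686 and 1468. Under that scaling Ptgds (log2 fold change 2.66) and Ptger3 (2.18) were still called higher and Ptgfr (-3.43) lower, Ptger4 was at 0.82 (limma adjusted p = 0.0511), Ptgis at -0.05 (adjusted p = 0.901), and Ptges, called lower, at -0.86 (adjusted p = 0.0311). Relative to the median of all genes, the 8 changes were 3.64 for Ptgds, 3.16 for Ptger3, 1.80 for Ptger4, 0.93 for Ptgis, 0.71 for Ptger2, 0.54 for Hpgd, 0.12 for Ptges and -2.45 for Ptgfr.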

How the data were processed

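Total RNA of 6 mouse samples was hybridised to 1 Affymetrix array each. Per the submitters' processing notes, MAS5 made the wild-type signals and GCOS those of the tumors, with no version given. The file deposited by the authors holds 1 intensity per probe set and array, on a linear scale. Each array was scaled again to a mean of 500 with 2% trimmed at each end, which changed almost nothing. Probe sets were named from GEO's platform annotation; 34945 carried 1 symbol, 932 several and 9160 none, 64 were controls, and only the first were used. Values were tested as log2(signal + 32), so fold changes of dim genes are understated. The filter, the probe set per gene and the fit (lmFit and eBayes of limma 3.58.1 under R 4.3.3, tested on both sides, 3 arrays against 3) followed an earlier description of these data. Where all arrays of the dimmer group were below 100, the fold is a bound. The fit was tested on simulated data. Of 100 genes given a log2 change of 1 it recovered 37, and of 100 given a change of 2 it recovered 89. In each case 9 unchanged genes were called. A gene that did not pass may therefore still differ. The number of arrays limits the precision. The wild-type samples are pools, and the fit used 1 spread per gene for both groups, adjusted with that of all genes. The p-values set a difference against that spread between samples, and not against the spread between single mice.

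The 10 genes, the lists, the motifs and the tests were chosen with earlier results of these data known. Named were all 10 genes, further pathway genes that were called or had a mean signal of at least 1000, Ptgs2, the 3 genes most alike to the called genes with the highest and lowest fold change, and the 2 brightest genes of a marker list; others are marked as named after their values were seen; of the brightest markers only those a result turns on are given. Promoter windows (RefSeq, GRCm38.p6) were found for 9 of the 10 genes. Python 3.11.15, pandas 2.3.3 and matplotlib 3.10.9 were used. Alternatives were the pseudocount (1, 100), the filter (none, 200), 3 scalings, the use of several probe sets, a variance trend, the replicate number as a block and leaving out each sample.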

Additional observations from a re-analysis of the deposited data

How the results depend on the processing

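Ptgds, Ptger3 and Ptgfr kept their direction and call under all 17 alternatives, with log2 fold changes of 2.66 to 3.82, 2.18 to 3.45 and -3.43 to -2.00. Ptgis and Ptger4 did so under 16 each, the exception being the scaling to hybridisation controls. Under that scaling 2 of the 10 genes were called higher and 2 lower, 2 and 13 of the further pathway genes, 384 and 7753 of all genes, and 3 and 5 of the probe sets of the 10 genes, and these log2 fold changes turned sign: Ptges -0.86, Ptgis -0.050, Hpgd -0.44, Ptger2 -0.27, Plaa -0.71, Ptgr1 -0.78, Ptgr2 -0.33, Slco3a1 -0.60 and Ptgfrn -0.055. It shifts the median of all genes to -0.98. Without the filter the further pathway genes called higher fell from 4 to 2: Pla2g5 and Ptgr2 lost their calls, as did Pla2g4a among the lower ones, while Ptgs2 was called lower, and the cause was not tested. Without 1 sample at a time Ptgr1 ranged from -0.48 (without tumor 3) to 0.78 and Zadh2 from -0.18 to 0.12 (0.06 without wild-type sample 2 and 0.12 without tumor 3), and no such fit called either.

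Without 1 sample at a time, the 10 genes gave 4 to 5 higher and 1 to 1 lower calls, the further pathway genes 2 to 4 higher (2 without wild-type samples 1 or 3) and 0 to 3 lower (0 without wild-type sample 1, 1 without wild-type samples 2 or 3 or tumors 1 or 2), all genes 866 to 1704 higher and 662 to 1409 lower (both lowest without wild-type sample 1, and 1092 and 880 without sample 3), and the probe sets 4 to 6 higher and 3 to 3 lower. The labels number samples 1 to 3 in both groups; same-numbered samples had correlations of deviations of -0.04, 0.03 and 0.09, and not every sample correlated best with its own number, so they share only a number. With the replicate block, 4 of the 10 genes were called higher and 1 lower, and 1464 and 1138 of all genes; Ptgr2 lost its call (adjusted p = 0.058). Signals under 100 on all arrays limit what can be said of Ptgir, Ptgs2, Ptgdr, Ptgdr2, Ptger1 and Hpgds.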
